A study of Mus musculus with 1600 samples.

Results

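The nuclear genes of oxidative phosphorylation encode most subunits of the respiratory chain and of ATP synthase in the inner mitochondrial membrane. They were chosen by their symbols in the gene annotation, as protein-coding genes whose names begin with Nduf (a to c, s or v, and a number), Sdh, Uqcr, Cox4 to Cox8 or Atp5. This gave 84 of the 45792 rows of the gene tables: 37 of complex I, 4 of complex II, 8 of complex III, 18 of complex IV and 17 of complex V, sorted by the name of each gene. The symbols place Ndufa4 and its paralog Ndufa4l2 under complex I, although NDUFA4 protein is now counted as a subunit of complex IV. Cox7a2l encodes a factor that joins complexes into supercomplexes, and Atp5s an ATP synthase factor that is no core subunit. The choice used names and no measured value.

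Complexes I and II pass electrons from NADH and succinate to ubiquinone, complex III hands them to cytochrome c, and complex IV passes them to oxygen. Complexes I, III and IV pump protons across the membrane, and complex V uses the returning protons to make ATP. A small set of further subunits is encoded in the mitochondrial genome, and several complex IV subunits have a second gene that is used in heart and muscle, lung or testis. In the kidney the proximal tubule is known for its dense mitochondria.

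RNA was measured in single wells of a microfluidic array, loaded with cells digested from glomeruli of mice aged 10 weeks. All mice were Nos3-/- on the C57BL/6 strain, so control and diabetes pools alike lacked endothelial nitric oxide synthase. Mice of the diabetes group had received 5 daily intraperitoneal injections of streptozotocin, a toxin of pancreatic beta cells, each of 50 µg per g, starting at 8 weeks of age, and control littermates had received its citrate vehicle. The study ran 2 experiments, and in each the glomeruli of 3 mice were pooled per condition. The well positions in the titles place both pools of an experiment on 1 array. The replicate is therefore the pool, with 2 per condition, and wells of a pool are not replicates.

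Wells imaged with exactly 1 cell were kept where they had at least 500 genes and at most 30% of their reads on the mitochondrial genome, which left 639 of 833 such wells. Control pools 1 and 2 kept 120 and 203 wells, and diabetes pools 1 and 2 kept 128 and 188. Median reads per kept well were 32222 and 43577 in the control and diabetes pools of experiment 1, and 219072 and 176715 in those of experiment 2. Wells imaged with no cell still held reads, with medians from 2212 to 33610 per pool. The design text calls the littermates sex-matched, but Xist, read from the inactive X, stood at 356 and 442 CPM (reads scaled to the same total in every sum) in control pools 1 and 2 and at 1.42 and 1.40 CPM in diabetes. For Ddx3y on the Y chromosome the values were 0 and 0.273 against 91.0 and 95.9 CPM, so condition and sex-linked expression cannot be told apart in any comparison of diabetes with control.

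Cell classes were built by clustering without the 84 genes and without mitochondrial genes, and named from marker genes. Endothelial-like wells numbered 47 and 81 in control pools 1 and 2 and 75 and 95 in diabetes pools 1 and 2. Mesangial-like wells numbered 31, 68, 5 and 21 in the same order, podocyte-like wells 21, 22, 1 and 8, and immune-like wells 5, 4, 28 and 38. Tubular-like wells numbered 4, 6, 7 and 5, wells like smooth muscle or renin cells 5, 5, 3 and 3, and 51 wells stayed unnamed. The 14 endothelial markers together reached 22570 to 27106 CPM in endothelial-like sums and 2227 to 5760 CPM in mesangial-like sums. They also reached 4716, 19091, 3825 and 7213 CPM in tubular-like sums of control pools 1 and 2 and diabetes pools 1 and 2. Tubular markers stood at 11133, 2152, 3388 and 7367 CPM in those sums. The tubular-like cluster was led by S100g, Spp1, Ldhb, Fxyd2 and Klk1. Of the 12 tubular markers, 5 were detected in at least 25% of its wells. The tubule segment of these wells was not tested. Immune-like sums held 911 to 8422 CPM of the endothelial markers.

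The promoters of the 84 genes were looked up because these genes are read in all cell types, and the factor NRF1 is a known activator of many of them. RefSeq windows on GRCm38.p6, from 250 bases before to 50 bases after the transcription start, were found for 66 of the 84 genes, with 71 windows in all. The NRF1 motif, the letters GCGCA and GCGC with any 1 base between them, was searched on both strands and was in 18 of the 71 windows (25.4%) and in 1512 of all 32851 windows of that length (4.603%). The palindromic form of it, with T as the free base, was in 5 of the 71 windows (7.04%) against 0.971% of all windows. The ETS letters CCGGAAG were in 22.5% of the member windows against 8.86% of all, and the YY1 letters AAGATGGCG in 9.86% against 1.40%. A match is a description of the letters and no evidence of binding. The 250 bases before the start are given for 1 gene each of complexes I, IV and V that carry the palindrome, 5′ to 3′ along the gene, with the palindrome in capitals.
Ndufa11: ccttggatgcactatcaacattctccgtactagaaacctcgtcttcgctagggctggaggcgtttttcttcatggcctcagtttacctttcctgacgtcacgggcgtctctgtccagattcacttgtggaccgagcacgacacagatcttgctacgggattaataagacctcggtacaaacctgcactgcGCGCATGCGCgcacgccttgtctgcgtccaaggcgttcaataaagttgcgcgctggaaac
Cox6a1: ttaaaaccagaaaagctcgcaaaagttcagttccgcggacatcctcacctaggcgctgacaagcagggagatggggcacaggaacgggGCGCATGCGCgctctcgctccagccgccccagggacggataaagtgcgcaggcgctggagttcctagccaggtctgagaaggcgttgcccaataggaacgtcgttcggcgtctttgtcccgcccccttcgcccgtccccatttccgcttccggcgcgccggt
Atp5k: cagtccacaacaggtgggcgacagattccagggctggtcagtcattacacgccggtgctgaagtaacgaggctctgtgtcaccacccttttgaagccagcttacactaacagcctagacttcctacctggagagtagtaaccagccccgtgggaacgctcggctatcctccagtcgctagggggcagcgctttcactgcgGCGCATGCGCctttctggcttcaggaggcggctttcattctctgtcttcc
The window of Ndufa11 is chr17:56717512-56717761 on the plus strand, that of Cox6a1 chr5:115348959-115349208 on the minus strand, and that of Atp5k chr5:108434400-108434649 on the minus strand. The palindrome begins at position -60 in Ndufa11, -162 in Cox6a1 and -50 in Atp5k, counted from the start. Ndufa11 is an accessory membrane-arm subunit of complex I, Cox6a1 the widely used form of a complex IV subunit, and Atp5k the e subunit of ATP synthase.

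Nearly all of the 84 genes were read in glomerular cells. Reads in kept wells were found for 81, and 64 had 1 count or more in at least 50% of the kept wells, with a median of 66.7% of wells per gene. Cox7b2, Cox8b and Cox8c had no reads, and all 116 reads of Cox6a2 came from 1 unnamed well of control pool 2. Cox6a2 and Cox8b are heart and muscle forms, and Cox7b2 and Cox8c are known from testis. For 12 of the 81 genes at least 50% of the values were fractions rather than whole numbers, among them Atp5l, Atp5h, Cox7c, Cox5b, Atp5g1 and Atp5g2, so their levels depend on how reads shared with other rows were divided. The tables also hold 10 processed pseudogene rows of matching name, the largest being Atp5l2-ps with 5994 reads, which were not counted among the 84.

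Levels per kilobase of transcript differed widely within each complex. In complex I the highest mean was that of the accessory subunit Ndufa3, at 1060, 897, 1105 and 663 CPM per kb in control pools 1 and 2 and diabetes pools 1 and 2, a mean of 931, and the lowest was Ndufa4l2 with a mean of 4.07. Ndufa4, with a mean of 832, was above Ndufa3 in control pool 1 and diabetes pool 2. In complex II the iron-sulfur subunit Sdhb was highest, with a mean of 148 CPM per kb, above the flavoprotein Sdha at 81.4 and the membrane anchors Sdhd at 56.9 and Sdhc at 19.3. That order of means was not the order in every pool for Sdha and Sdhd: Sdha had 95.4, 76.9, 59.2 and 94.2 CPM per kb and Sdhd 61.4, 54.0, 69.1 and 43.2. In complex III the small subunits Uqcr10 and Uqcr11 had the highest means, 1212 and 1152 CPM per kb, and Uqcr11 was the higher in control pool 1. The Rieske protein Uqcrfs1 and the core protein Uqcrc2 were lowest, with means of 41.85 and 41.86, and their order differed between pools. In complex IV Cox6b1, which faces the intermembrane space, led with 1431, next to Cox4i1, the common form of the Cox4 subunit, with 1335, and their pools overlapped. In complex V Atp5k led with 1114 and Atp5s was lowest with 4.38 CPM per kb. The c subunit, which forms the rotor ring, is made from 3 genes, and Atp5g3 had 418, Atp5g2 102 and Atp5g1 63.2 CPM per kb. This order rests on the length of the principal transcript, which is 4715 bases for Atp5g1 against 731 for Atp5g2 and 723 for Atp5g3. Without division by length Atp5g1 had a mean of 298 CPM, next to 302 for Atp5g3 and above 74.7 for Atp5g2. The ATP synthase inhibitor Atpif1, no member by its symbol, had 642 and 547 CPM in control pools 1 and 2 and 590 and 480 in the diabetes pools.

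The summed share of the 84 genes was similar in wells with a cell and in wells without. It was 2.58%, 2.03%, 1.99% and 1.92% of reads over all kept wells of control pools 1 and 2 and diabetes pools 1 and 2. In wells imaged with no cell it was 2.47%, 1.98%, 1.79% and 1.71% in the same order, so these genes took nearly the same proportion of reads there. The 13 subunits of the mitochondrial genome took 4.85%, 4.72%, 3.55% and 5.16% of reads in kept wells and 8.11% to 15.2% in wells with no cell.

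**Figure D1:**
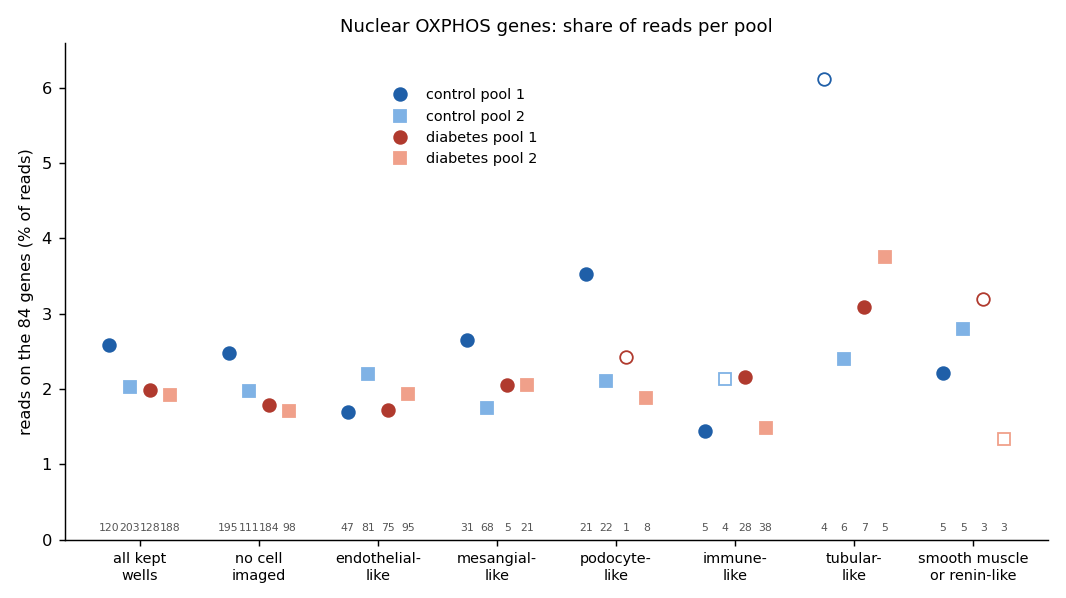
Share of reads on the 84 genes (y axis, % of all reads of the summed wells) for each pool, in all kept wells, wells with no cell imaged and 6 cell classes. Small numbers above the x axis are wells, and open symbols mark sums of fewer than 5 wells. The tubular-like sum of control pool 1, from 4 wells, stands highest at 6.11%, and the other sums lie between 1.33% and 3.75%.

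Across classes, the ranges over pools overlapped for endothelial-like, mesangial-like, podocyte-like and immune-like wells. Endothelial-like sums held 1.70%, 2.20%, 1.72% and 1.93% of reads on the 84 genes, and mesangial-like sums 2.65%, 1.75%, 2.05% and 2.05%. Podocyte-like sums with at least 5 wells held 3.53% and 2.11% in control and 1.89% in diabetes pool 2. Tubular-like sums with at least 5 wells held 2.401% in control pool 2 and 3.09% and 3.75% in diabetes pools 1 and 2, each above every endothelial-like sum. Endothelial markers exceeded tubular markers in the tubular-like sums of control pool 2 (19091 against 2152 CPM) and diabetes pool 1 (3825 against 3388 CPM). The part of other cell types in these shares was not tested. Immune-like sums held 1.44% in control pool 1 and 2.17% and 1.49% in diabetes pools 1 and 2. In experiment 1, where spike-in RNA was counted, the median well of control pool 1 and diabetes pool 1 held 0.0542 and 0.0703 reads of the 84 genes per spike-in read in endothelial-like wells. The values were 0.0970 and 0.156 in mesangial-like, 0.0367 and 0.165 in immune-like, 0.187 and 0.115 in podocyte-like and 0.242 and 0.185 in tubular-like wells. The second podocyte-like value comes from 1 well, and the order of classes differed between the pools.

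Each class was compared with the mean of the other classes on 19 sums of class and pool, with the pool as a block (edgeR quasi-likelihood test, Benjamini-Hochberg adjustment over 13562 genes, threshold 0.05). Since the classes were cut from the same wells, these p-values describe the grouping, although the 84 genes took no part in it. Of the 79 members tested, 1 passed in mesangial-like wells, Ndufa4l2, where 2.93% of all genes did and 2.85% were called higher, as it was. None passed in endothelial-like wells (5.55% of all genes), immune-like wells (4.67%) or podocyte-like wells (5.85%). Unadjusted p-values below 0.05 were found for 2 members in mesangial-like, 1 in endothelial-like, 3 in immune-like and 2 in podocyte-like wells. DESeq2 called 2 members for mesangial-like wells, Ndufa4l2 and Cox5b, against 6.69% of all genes. It called Ndufa12 for immune-like wells (8.66% of all genes), Cox7a1 for podocyte-like wells (15% of all genes) and 0 members for endothelial-like wells (9.97%).

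Fitted changes of the members leaned to 1 side in each class in the main fits. In endothelial-like wells 12 of 79 members had a positive log2 change, with a median of -0.39 against 0.73 over all genes tested. In immune-like wells 20 were positive, with a median of -0.58 against 0.39. Podocyte-like wells showed the opposite balance, with 61 of 79 positive and a median of 0.35 against 0.21 over all genes. By complex, the podocyte-like medians were 0.35 for complex I, -0.10 for II, 0.63 for III, 0.27 for IV and 0.38 for V. In mesangial-like wells 25 were positive, with a median of -0.16 against 0.42. The median over all genes was itself positive in each of these classes. It is thus no neutral baseline, and the gap to it does not measure a deficit of the members. With wells thinned to 10000 reads, the podocyte-like and mesangial-like medians of the members both turned sign, the podocyte-like one to -0.02. By the median well, podocyte-like wells were not above endothelial-like wells in every pool. All members together took 35762 CPM in the median podocyte-like well of control pool 1, against 14634 CPM in the median endothelial-like well. In control pool 2 and diabetes pool 2 the order was reversed, with 11269 against 19954 CPM and 8567 against 18463 CPM. Diabetes pool 1, with 1 podocyte-like well, had 24263 against 16888 CPM.

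**Figure D2:**
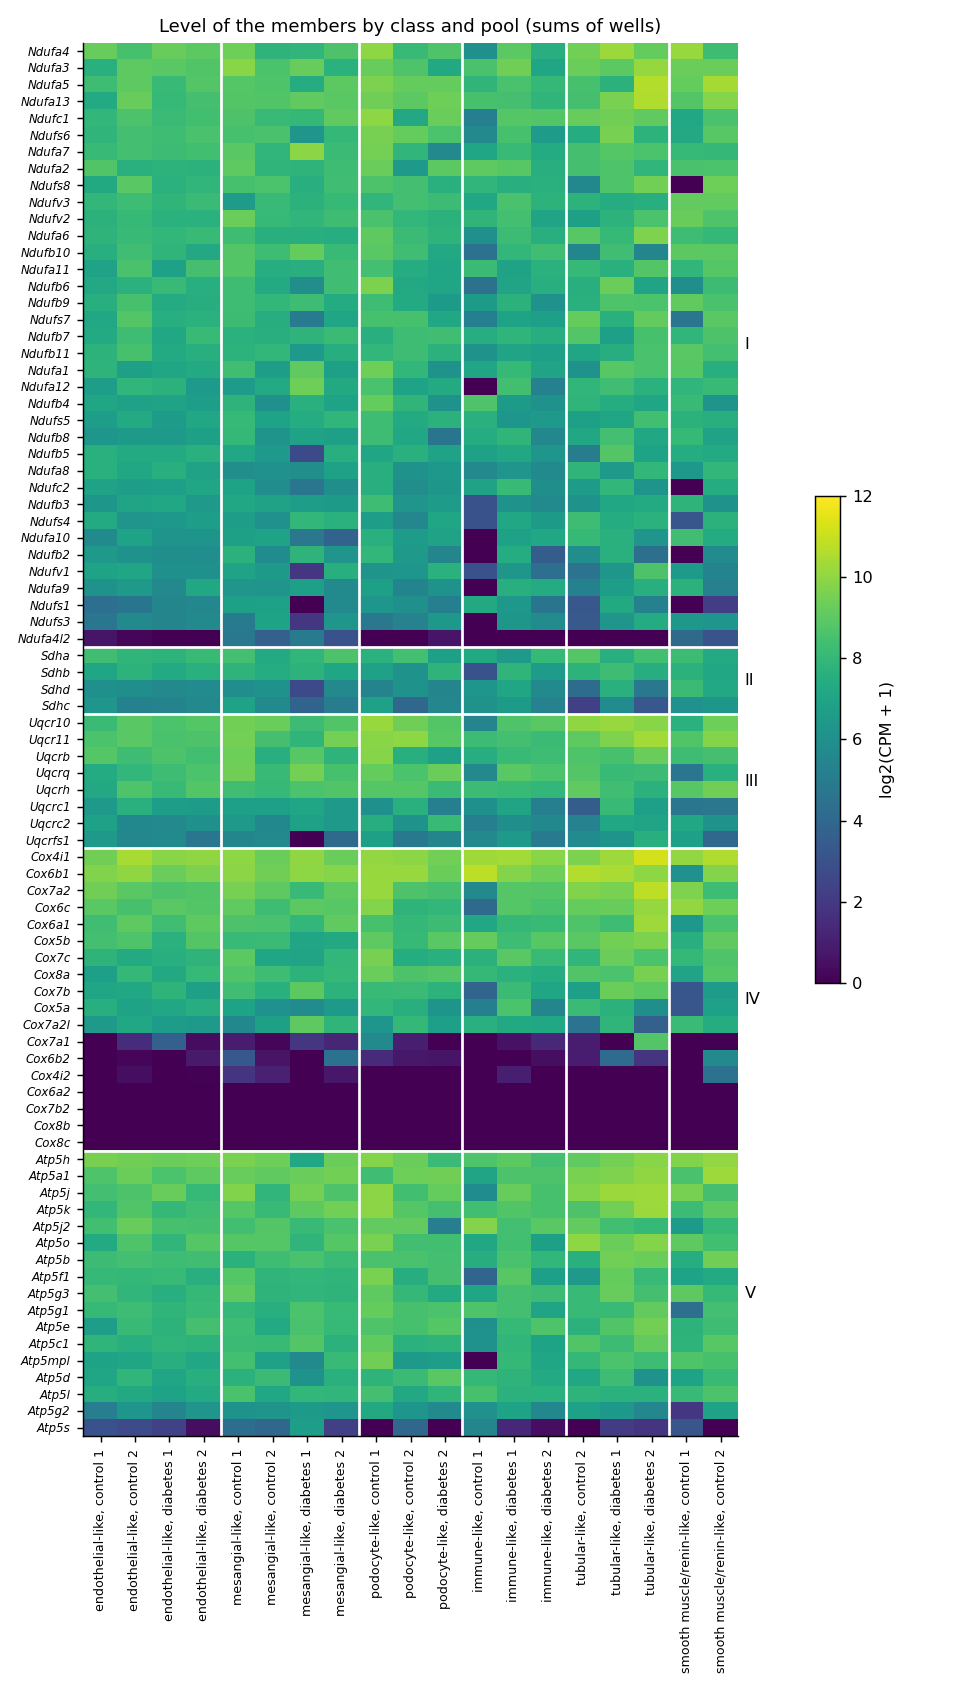
Level of the member genes (1 row each, grouped by complex I to V and ordered by mean level) in the 19 sums of class and pool with at least 5 wells (columns), as log2(CPM + 1) on the colour scale. Most rows are of similar colour across classes, Ndufa4l2 is lightest in the mesangial-like and smooth muscle or renin-like columns, and Cox6a2, Cox7b2, Cox8b and Cox8c are at 0 in these columns.

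The members with the smallest p in each class give the scale of the spread. For endothelial-like wells these were Cox6b2, a testis form of a complex IV subunit (-3.87 on the log2 scale), Cox8a (-0.98), Ndufa13 (-0.92) and Atp5k (-0.85), with adjusted p from 0.173 to 0.294. Cox8a had 110, 254, 155 and 259 CPM in endothelial-like sums and 422, 313, 212 and 256 in mesangial-like sums, so the 2 classes overlapped. For immune-like wells they were Atp5j2, the f subunit of ATP synthase (1.13), Ndufa12 (-1.83), Ndufa4 (-1.29), the catalytic-head subunit Atp5a1 (-1.003) and Cox6b2 (-4.64), with adjusted p from 0.292 to 0.368. Ndufa4 had 64.1 CPM in the immune-like sum of control pool 1 and 505 and 190 in those of diabetes pools 1 and 2, which shows how far 1 class varied between pools. Leaving out 1 pool moved the immune-like log2 changes to between -3.18 and -0.80 for Ndufa12, -2.36 and -0.48 for Ndufa4 and -1.53 and -0.55 for Atp5a1, in each case without diabetes pool 1 and without control pool 1. For podocyte-like wells they were the zinc-binding accessory subunit Ndufs6 (1.42), Uqcrq (1.23), the stalk subunit Atp5f1 (1.23), the core protein Uqcrc2 (1.25) and Atp5d (1.02), with adjusted p from 0.157 to 0.341. Ndufs6 had 740, 569 and 383 CPM in podocyte-like sums against 227 to 380 in endothelial-like sums, so the lowest podocyte-like sum lay just above the highest endothelial-like one. For mesangial-like wells after Ndufa4l2 they were Cox5b (-1.15), Atp5s (2.89), Uqcrq (0.87) and Cox4i1 (-0.63), with adjusted p from 0.204 to 0.534.

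Ndufa4l2, known as a target of hypoxia-inducible factor in other cells, was the only member that edgeR called for a class. Over the 4 pools wells like smooth muscle or renin cells held 16.5 CPM of Ndufa4l2 and mesangial-like wells 11.6 CPM. The gene was thus not particular to mesangial-like wells. The gene lies at chr10:127514967-127517154 on the plus strand of mm10. In mesangial-like sums it stood at 27.3 and 11.7 CPM in control pools 1 and 2 and 30.4 and 7.09 CPM in diabetes pools 1 and 2. In endothelial-like sums it stood at 0.59, 0.12, 0 and 0 CPM in the same order, so the classes did not overlap in any pool. Wells like smooth muscle or renin cells held 16.6 and 7.60 CPM in control and, from 3 wells each, 10.5 and 53.0 CPM in diabetes. The log2 change in mesangial-like wells against the mean of the other classes was 6.31 (SE 1.39, edgeR adjusted p = 0.0107), a fitted value that depends on the prior count since most other classes were near 0.

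The reads of Ndufa4l2 were few but spread over many wells. Over the 4 pools, 258 reads fell in 43 of 125 mesangial-like wells (34.4%, exact 95% binomial interval 26.1% to 43.4%). Endothelial-like wells had a read in 3 of 298 (1.01%, interval 0.208% to 2.91%), and wells with no cell in 15 of 588 (2.55%). Wells like smooth muscle or renin cells had a read in 8 of 16 wells. These intervals cover counting error only. Tubular-like and immune-like wells had none, and against the limit of 3 reads over all immune-like wells the mesangial-like level of 11.6 CPM was at least 31.7-fold higher. Median reads per well were 31147, 188196, 80027 and 237378 in mesangial-like wells and 27245, 222239, 38474 and 200436 in endothelial-like wells of control pools 1 and 2 and diabetes pools 1 and 2. Endothelial-like wells were thus shallower in 3 of the 4 pools. In wells thinned to 10000 reads, Ndufa4l2 was found in 20.7%, 4.41%, 33.3% and 0% of mesangial-like wells in the same order of pools. The third value comes from 3 wells. In thinned endothelial-like wells it was found in 0% in every pool. The part of depth in the shares of wells was not tested further. The call was lost with mitochondrial reads of at most 15% of a well (adjusted p = 0.166) and with finer clustering (adjusted p = 0.0932), while the log2 change was 8.14 and 5.99. With wells thinned to 10000 reads the gene had too few reads to be tested.

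The related gene Ndufa4 took more reads than Ndufa4l2 in every class. It had 661, 226, 236 and 398 CPM in mesangial-like sums and 585, 364, 585 and 495 CPM in endothelial-like sums. Ndufa4l2 made up 3.96%, 4.93%, 11.4% and 1.75% of the reads of the pair in mesangial-like sums, so Ndufa4 held most of them in each pool. In endothelial-like sums its share was at most 0.1001%. Over the 19 sums, the genes whose log2(CPM + 1) followed Ndufa4l2 most closely were 4930511M06Rik (Pearson r = 0.93), Naalad2 (0.92), Khdrbs3 (0.91), Gm9780 (0.91) and Rasl12 (0.91). These points share pools and arrays, so the values are a description.

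**Figure D3:**
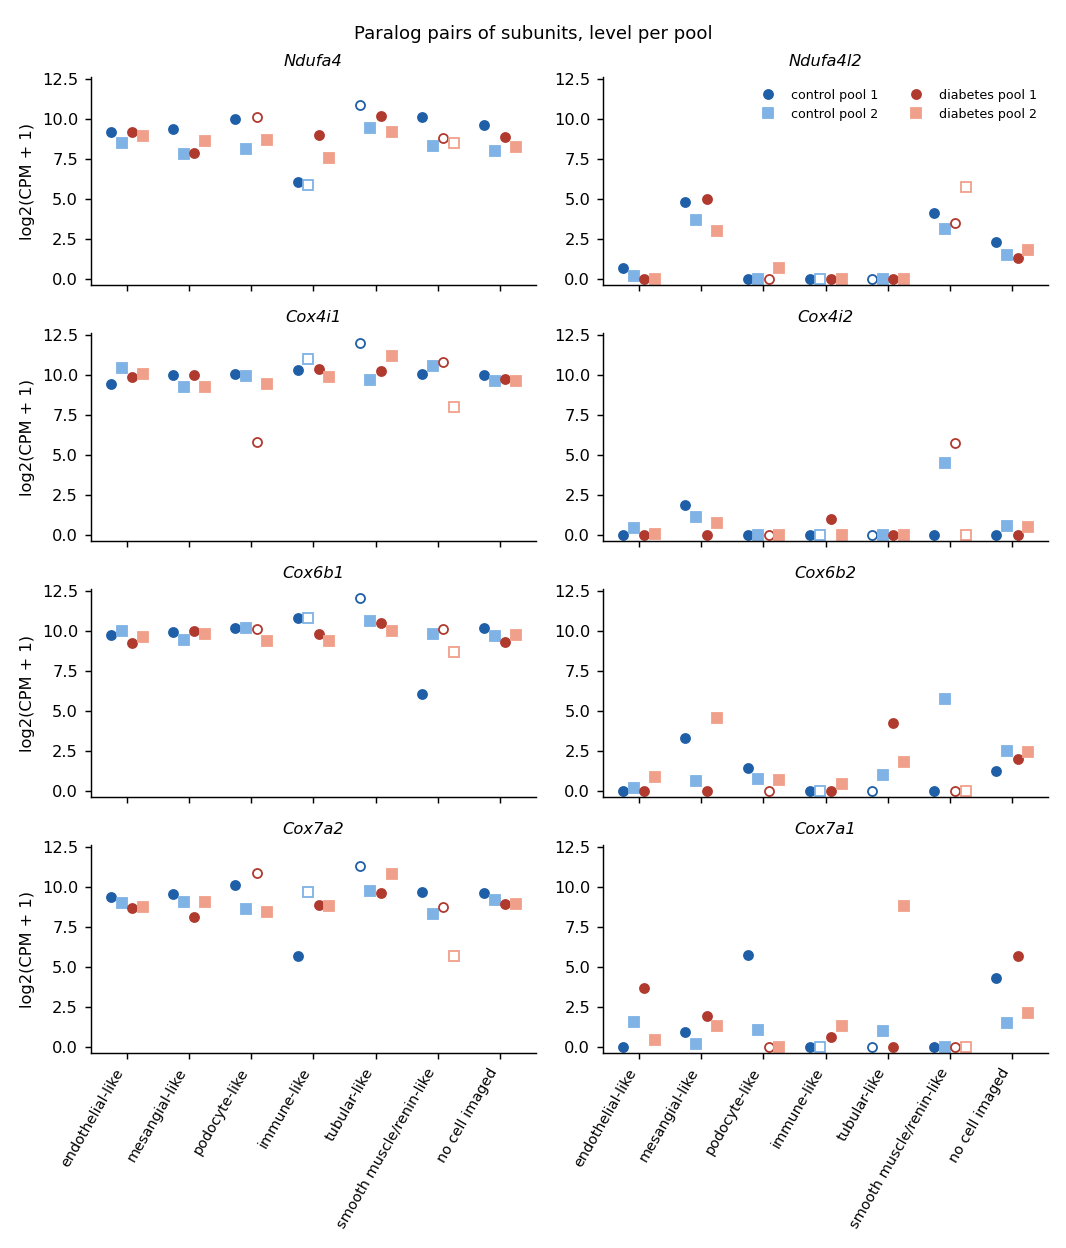
Levels as log2(CPM + 1) (y axis) of 4 pairs of related subunit genes in each class and in wells with no cell imaged (x axis), 1 symbol per pool, open where fewer than 5 wells were summed. The genes on the left are high in every class, Ndufa4l2 is above 0 in every mesangial-like and smooth muscle or renin-like sum, and the other genes on the right are at or near 0 in most sums.

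The other secondary forms had few reads, which came from few wells. Cox4i2, a form of Cox4i1 known from lung and from hypoxia, had 87 reads in all kept wells, of which 52.5 came from 4 of the 16 wells like smooth muscle or renin cells. Its level there was 21.5 CPM in control pool 2, with 83.5% of the reads from 1 well, and 52.4 CPM in diabetes pool 1, all from 1 well, and it was 0 in the other pools. Mesangial-like sums held 2.64, 1.15, 0 and 0.71 CPM of Cox4i2, while Cox4i1 stood at 996, 611, 1032 and 603 CPM in them. The genes closest to Cox4i2 over the 19 sums were Gng4 (r = 0.94), 1700034P13Rik (0.93), Drp2 (0.92), Clca3a2 (0.91) and Ndrg4 (0.90), a likeness that rests on 1 sum, that of control pool 2.

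Cox7a1, the heart and muscle form of Cox7a2, had its highest level in tubular-like wells of diabetes pool 2, at 444 CPM, with 83.2% of those reads from 1 well. In podocyte-like wells, where DESeq2 called it, 69 reads of Cox7a1 fell in 3 of 52 wells, 8.02 CPM over the 4 pools. In wells with no cell it stood at 18.9, 1.81, 50.7 and 3.41 CPM, above its level in most classes of the same pools. Cox6b2 had 8.79, 0.53, 0 and 22.3 CPM in mesangial-like sums, with 62.7% of the highest value from 1 well, and 51.2 CPM in smooth muscle or renin-like wells of control pool 2. The common forms Cox6a1, Cox6b1, Cox7a2 and Cox8a were detected in 81.9%, 90.9%, 79.5% and 72.8% of endothelial-like wells. In mesangial-like wells the shares were 85.6%, 92.8%, 87.2% and 86.4%. Wells with no cell showed these 4 genes in 56.5%, 69.0%, 64.8% and 49.8%, so detection alone does not separate them from free RNA. All these shares pool experiments of unlike depth. In wells with no cell Cox8a was found in 29.7% and 27.2% of control and diabetes wells in experiment 1 and 91.9% and 84.7% in experiment 2. For Cox6b1 the values were 52.8% and 53.3% in experiment 1 and 100% and 95.9% in experiment 2.

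The genes of complex II and of the c subunit overlapped between endothelial-like and mesangial-like wells. Sdha had 316, 233, 218 and 284 CPM in endothelial-like sums and 341, 159, 241 and 403 CPM in mesangial-like sums. Sdhb had 133, 214, 161 and 196 CPM against 219, 170, 217 and 130, and the ranges overlapped for both genes. Atp5g3 had 335, 234, 187 and 254 CPM in endothelial-like and 545, 221, 235 and 221 CPM in mesangial-like sums. Atp5g2, at 34.5 to 76.9 CPM, and Atp5g1, at 227 to 307 CPM in endothelial-like sums, also overlapped with their mesangial-like values. Sdhc had 37.7 to 74.7 CPM in endothelial-like and 13.8 to 125 CPM in mesangial-like sums, and Sdhd 49.9 to 65.1 and 5.52 to 70.7 CPM. In podocyte-like sums with at least 5 wells Atp5g1 had 565, 367 and 382 CPM, above every endothelial-like sum, and was not called.

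Within a class and pool, wells differed in their share of the 84 genes together with other measures of the well. Over the 11 groups of class and pool with at least 20 wells, Spearman's rho between the share of the 84 genes and that of cytosolic ribosomal protein genes ranged from 0.47 to 0.82. With the 2 shares taken of separate denominators it ranged from 0.50 to 0.82. The relation to mitochondrial genome reads was negative in all 11 groups (-0.86 to -0.14, and -0.85 to -0.02 with the share of the 84 genes taken of nuclear reads), as was that to the nuclear RNA Malat1 (-0.65 to -0.13). The relation to total reads was positive (0.25 to 0.69). These values are descriptions over wells, which share their pool, array and depth.

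The complexes varied together from well to well, with complex II the least. The share of each complex was compared with that of the remaining members in the same 11 groups. Spearman's rho ranged from 0.50 to 0.84 for complex I, 0.34 to 0.69 for complex III, 0.42 to 0.77 for complex IV and 0.40 to 0.76 for complex V. For complex II, with 4 genes at low counts, it ranged from -0.03 to 0.61. The median rho was 0.62 for complex I, 0.50 for III, 0.56 for IV and 0.59 for V. Between all members and cytosolic ribosomal protein genes it was 0.75. The joint variation was thus not particular to these genes, and all shares were taken of the same well total.

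**Figure D4:**
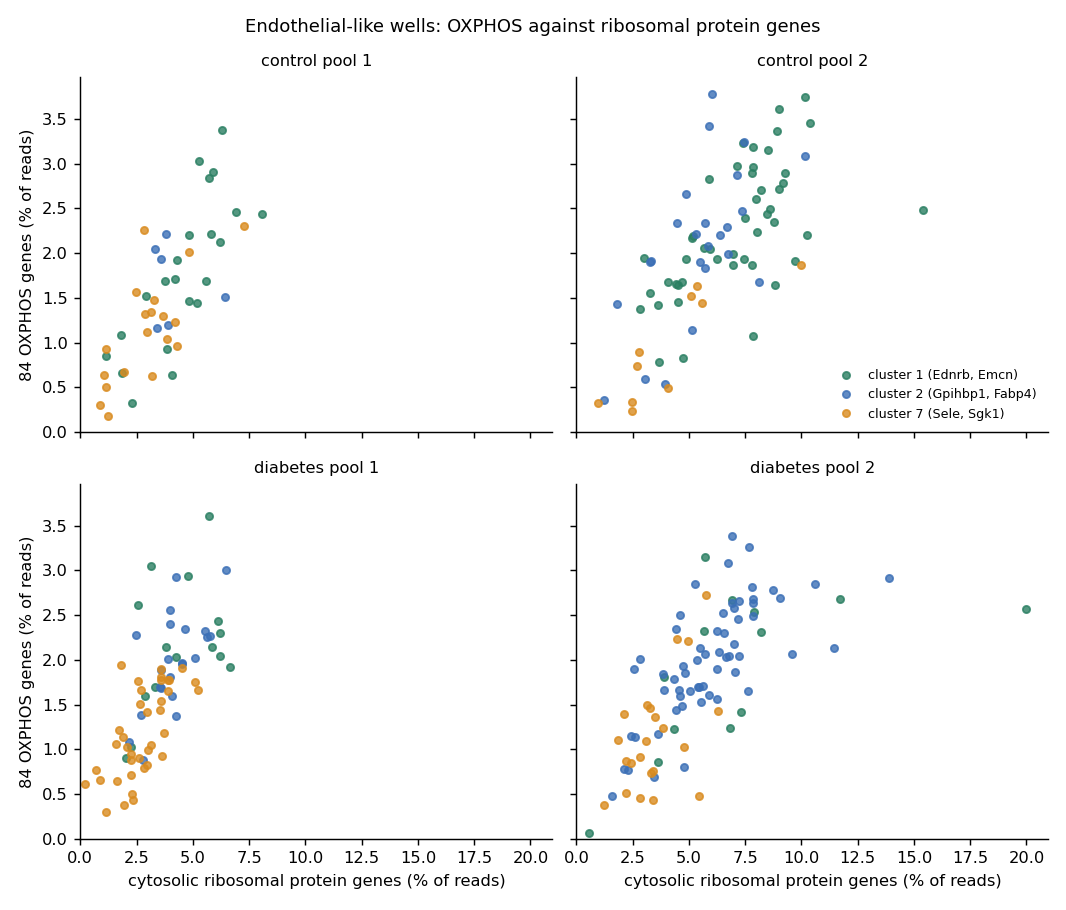
Endothelial-like wells of each pool, with the share of reads on cytosolic ribosomal protein genes (x axis, %) against the share on the 84 genes (y axis, %), coloured by cluster. Wells rise from lower left to upper right in each pool, and most wells of cluster 7 lie at the lower left.

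The endothelial-like class was made of 3 clusters that differed in these genes. Cluster 1 was led by Ednrb and Emcn, cluster 2 by the capillary lipid genes Gpihbp1 and Fabp4, and cluster 7 by the adhesion molecule Sele and the kinase Sgk1. Cluster 7 held 1.49%, 1.01%, 1.37% and 1.37% of its reads on the 84 genes in control pools 1 and 2 and diabetes pools 1 and 2. Cluster 1 held 1.83%, 2.37%, 2.09% and 1.94%, and cluster 2 held 1.91%, 2.15%, 2.05% and 2.10%, so cluster 7 was lowest in all 4 pools. Of 77 members tested in endothelial-like wells, 30 were lower in cluster 7 than in the mean of the other clusters in every pool, against 9.68% of all genes. Median ribosomal protein levels in cluster 7 were 29457, 34151, 26689 and 33052 CPM in the same order of pools, against 48267, 75118, 42705 and 68310 CPM in cluster 1. In cluster 2 they were 36965, 57089, 40303 and 57941 CPM. Median Malat1 levels were 19199, 22080, 19500 and 23818 CPM in cluster 7, 16798, 12933, 12742 and 12726 CPM in cluster 1, and 23474, 10226, 14372 and 13272 CPM in cluster 2. Cluster 7 was thus lowest in ribosomal protein genes in all 4 pools, and highest in Malat1 in all but control pool 1, where cluster 2 was higher. Median reads per well were 27196, 128559, 37478 and 173509 in cluster 7 and 29636, 229102, 30983 and 180448 in cluster 1. In cluster 2 they were 29616, 270372, 41900 and 222210. Cluster 7 was thus shallower than cluster 2 in all 4 pools, and than cluster 1 in all but diabetes pool 1. The clusters were cut from these wells, so no test is given, and the part of RNA quality or depth was not tested. The wells of cluster 7 numbered 19, 10, 38 and 22.

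Between conditions, no member passed the test in all kept wells. Diabetes was compared with control over the 4 pools with the experiment as a block, and of 80 members tested 0 were called by edgeR, where 12 of 15330 genes (0.0783%) were. At an unadjusted p under 0.05 there was 1 member, against 7.36% of all genes. DESeq2 called 0 members and 3.67% of all genes. The fitted log2 change was negative for 59 members and positive for 21, with a median of -0.19 against 0.05 over all genes tested and a median standard error of 0.32. By complex the medians were -0.23 for I, -0.06 for II, -0.14 for III, 0.02 for IV and -0.19 for V.

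The members with the smallest p were all of complex I and had lower values in both diabetes pools. Ndufs7, a core subunit with an iron-sulfur cluster next to the quinone site (chr10:80249121-80256794), had 248 and 358 CPM in control pools 1 and 2 and 156 and 177 CPM in diabetes pools 1 and 2. Its groups did not overlap, and its log2 change was -0.78 (SE 0.29, edgeR p = 0.0339, adjusted p = 0.665). Ndufs8, another iron-sulfur core subunit, had 303 and 451 against 209 and 243 CPM (log2 change -0.66, SE 0.28, adjusted p = 0.689). Among membrane-arm accessory subunits, the X-linked Ndufb11 had 237 and 291 against 145 and 205 CPM, and Ndufb9 had 288 and 297 against 227 and 166 CPM. Ndufb10 had 329 and 303 against 249.4 and 185 CPM. Their log2 changes were -0.55, -0.53 and -0.49, with adjusted p from 0.823 to 0.846. None of these changes passed. With 1 pool left out the log2 change ranged from -1.14 to -0.43 for Ndufs7, from -1.03 to -0.27 for Ndufs8 and from -0.92 to -0.22 for Ndufb11, while those of Ndufb9 and Ndufb10 stayed between -0.67 and -0.39. The smallest changes were those without control pool 2 for Ndufs7 and Ndufs8 and without diabetes pool 1 for Ndufb11.

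Pool values were also counted gene by gene. Both diabetes pools lay below both control pools for 21 of 80 members, against 17.8% of all genes tested. For 1 member, the accessory subunit Ndufa9, both lay above, against 15.9% of all genes. Ndufa9 had 85.3 and 77.8 CPM in control and 92.7 and 127 CPM in diabetes. Diabetes was lower than control for 64 of 80 members in experiment 1 (median -0.40 on the log2 scale, against 0.04 over all genes) and for 48 of 80 in experiment 2 (median -0.10 against -0.06). The summed share of the 84 genes differed by -22.8% in experiment 1 and -5.58% in experiment 2. By the median well the difference was -6.04% and -7.38%, and over all wells imaged with 1 cell, kept or not, the median well differed by 12.3% in experiment 1 and -8.36% in experiment 2. The size in experiment 1, and its sign, thus changed with how wells were summarised. The sums over wells with no cell differed by -27.7% and -13.5%, in the same direction as the sums over kept wells and by more.

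**Figure D5:**
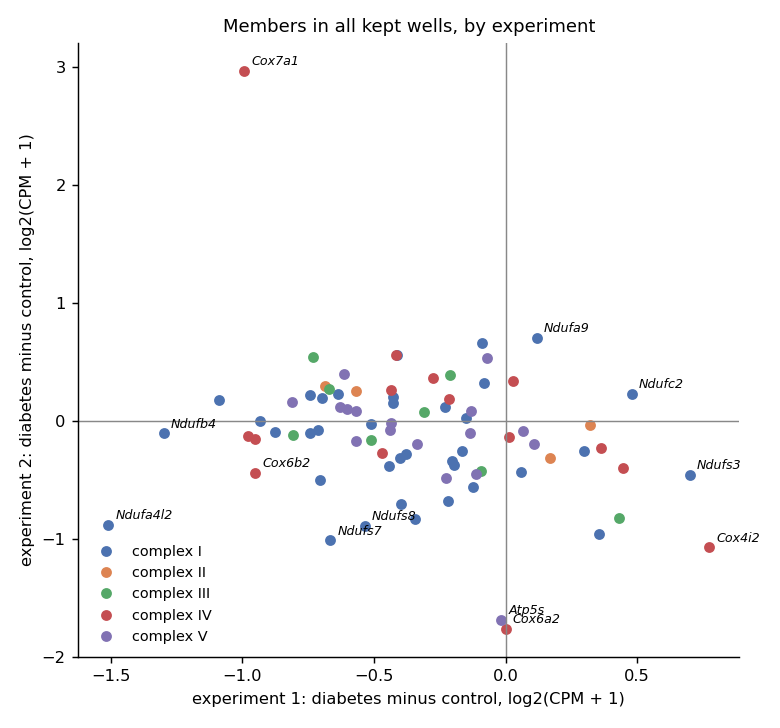
Difference of diabetes minus control on the log2(CPM + 1) scale for each of the 81 members with reads, in experiment 1 (x axis) and experiment 2 (y axis), coloured by complex. Most points lie left of 0 in experiment 1 and scatter about 0 in experiment 2, and Cox7a1, Ndufa4l2, Cox6a2 and Atp5s, all at low counts, lie among the farthest points.

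Cell makeup moved with condition in these sums. Mesangial-like and podocyte-like wells were 31 and 21 of the 120 kept wells of control pool 1 against 5 and 1 of 128 in diabetes pool 1. Summed podocyte markers were 8974 and 5961 CPM in control and 1440 and 2774 CPM in diabetes, and summed immune markers 1668 and 365 against 17315 and 2019 CPM. The part of makeup in the values of the 84 genes was not tested in the sums over all wells, where fewer cells of a type and less RNA per cell cannot be told apart. Ndufa4l2 had 7.35 and 4.14 CPM in control and 1.93 and 1.79 CPM in diabetes over all kept wells, while within mesangial-like wells its control and diabetes pools overlapped.

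Within endothelial-like wells no member was called. Of 77 tested, 0 passed, where 8 of 12578 genes (0.0636%) did, and 0 were called by DESeq2 (0.684% of all genes). At an unadjusted p under 0.05 there was 1 member, against 4.44% of all genes. The log2 change was positive for 33 members, with a median of -0.04 against 0.07 over all genes. The smallest p belonged to Uqcrq, a small subunit of complex III, with 167 and 249.3 CPM in control and 308 and 382 CPM in diabetes (log2 change 0.79, SE 0.33, edgeR p = 0.0453, adjusted p = 1.00). Its groups did not overlap, and Ndufv1, which binds NADH, went the other way with 123 and 137 against 64.2 and 65.0 CPM (-0.96, SE 0.46). Both were named for their small p, and separation of pools was not counted over all genes in endothelial-like sums. Atp5e, the epsilon subunit of ATP synthase, had 106 and 276 against 218 and 348 CPM (0.72). Ndufb11 had 215 and 363 against 162 and 190 CPM (-0.63), and Ndufb9 186 and 365 against 167 and 174 CPM (-0.58). The summed share of the 84 genes differed by 1.45% in experiment 1 and -12.2% in experiment 2, so the experiments went opposite ways. The clusters that make up the class differed in size between pools: cluster 1 had 22 and 47 wells in control and 15 and 13 in diabetes, cluster 2 had 6 and 24 against 22 and 60, and cluster 7 had 19 and 10 against 38 and 22. Within clusters the share differed by 14.3% in experiment 1 and -18.3% in experiment 2 for cluster 1, by 6.96% and -2.47% for cluster 2 and by -7.76% and 35.5% for cluster 7, so each cluster went opposite ways too. Erythroid markers summed to 0 and 25.99 CPM in endothelial-like sums of control and 12841 and 6177 CPM in those of diabetes. Mesangial markers summed to 9158 and 5244 against 4175 and 1839 CPM, and immune markers to 104 and 108 against 417 and 348 CPM. The part of these markers in the result was not tested.

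Within mesangial-like wells the diabetes sums were small, with 5 and 21 wells, and markers of other cell types moved with condition. Fibroblast markers summed to 409 and 607 CPM in control and 5053 and 1492 CPM in diabetes, smooth muscle and renin cell markers to 306 and 565 against 1173 and 2263 CPM, and endothelial markers to 5760 and 4288 against 2227 and 2371 CPM. Their part in the values of the 84 genes was not tested. Of 78 members tested 0 were called, where 11 of 10083 genes (0.109%) were, and 0 were called by DESeq2 (0.248% of all genes). At an unadjusted p under 0.05 there were 2 members, against 3.15% of all genes. The log2 change was positive for 35, with a median of -0.18 against -0.44 over all genes and a median standard error of 0.73. Cox7a2l had 47.8 and 114 CPM in control and 520 and 232 CPM in diabetes (2.27, SE 0.83, edgeR p = 0.00633, adjusted p = 1.00). At least 50% of its values were fractions, so reads shared with other rows enter it. Atp5h, a stalk subunit, had 760 and 651 against 146 and 633 CPM (-1.14), so its low value was that of the 5 wells of diabetes pool 1. Ndufs6 had 361 and 379 against 74.5 and 250 CPM (-1.37), Ndufa12 98.9 and 161 against 649 and 157 CPM (1.38), and Ndufs7 299 and 176 against 30.4 and 137 CPM (-1.72). The summed share differed by -22.6% in experiment 1 and 17.3% in experiment 2.

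The difference of the diabetes effect between mesangial-like and endothelial-like wells was tested as an interaction. Of 79 members 0 were called by edgeR, where 2 of 16111 genes (0.0124%) were, and 0 were called by DESeq2 (0.192% of all genes). At an unadjusted p under 0.05 there was 1 member, against 3.90% of all genes. The smallest p was that of Cox7a2l, with a difference of 2.43 on the log2 scale (SE 1.14, adjusted p = 1.00). The next were Ndufa10 (-2.64), the iron-sulfur core subunit Ndufs1 (-3.34), Ndufa3 (-1.55) and Ndufs6 (-1.59). Ndufs1 had 113 and 117 CPM in mesangial-like control sums and 0 and 52.0 CPM in diabetes. In endothelial-like sums it had 19.9 and 24.2 CPM in control and 44.0 and 45.4 CPM in diabetes. Its value of 0 came from the 5 wells of diabetes pool 1. Immune-like and podocyte-like wells had too few wells in 1 pool each for a comparison of conditions.

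The X-linked members showed no common shift beside the difference in sex-linked genes. Ndufb11 was lower in both diabetes pools. Ndufa1 had 356 and 133 CPM in control pools 1 and 2 and 219 and 152 CPM in diabetes pools 1 and 2. Cox7b had 239 and 187 against 308 and 159 CPM, so both overlapped between conditions.

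Other genes of respiration were followed as lists that hold none of the 84 genes. None of the 13 mitochondrial genome subunits, 46 tested assembly factors, 13 citric acid cycle genes, 14 glycolysis genes, 12 biogenesis regulators, 13 electron carrier genes and 8 hypoxia response genes was called between conditions over all kept wells. The citric acid cycle list had 12 of 13 negative changes, a median of -0.37, and the mitochondrial genome list 12 of 13 negative, a median of -0.18, against 0.05 over all genes. The summed share of the 13 mitochondrial genome subunits differed by -27.0% in experiment 1 and 9.40% in experiment 2, so the experiments went opposite ways. Glycolysis genes were positive for 9 of 14, with a median of 0.19. In endothelial-like and mesangial-like wells and in the interaction, too, none of these lists had a called gene.

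Between classes a few list genes were called, to be read against the share of all genes called, 5.55% in endothelial-like, 5.85% in podocyte-like, 4.67% in immune-like and 2.93% in mesangial-like wells. In endothelial-like wells mt-Co1 and mt-Co3, core subunits of complex IV from the mitochondrial genome, fell by 0.87 and 0.78 on the log2 scale (edgeR adjusted p = 0.0228 and 0.0464), and the list's median was -0.74 with 1 of 13 positive, against 0.73 over all genes. The assembly factors Sco1, a copper carrier for complex IV, and Ndufaf6 were higher there (6.83, SE 1.82, and 5.86, SE 1.67). In podocyte-like wells 4 of 44 tested assembly factors were higher, Atpaf1 (3.92), Tmem126b (5.59), Ttc19 (4.61) and Uqcc1 (5.55), and 39 were positive with a median of 1.25, against 0.21 over all genes. The hypoxia response genes Vegfa (4.73), which podocytes are known to make, and Adm (6.39) were also higher there, as was Coq7 (3.59) of ubiquinone synthesis. The podocyte-like changes of the 13 mitochondrial genome subunits had a median of 0.30 with none called. In immune-like wells the glycolysis gene Hk2 was higher (7.54, SE 2.01), and in mesangial-like wells no list gene was called. Standard errors of the list genes called in podocyte-like wells ran from 0.69 for Vegfa to 1.52 for Adm. Levels per class are not given for the list genes. How far changes of this size rest on classes with few reads was not tested. The median over all genes was positive in these classes, so it is no neutral baseline.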

How the data were processed

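The authors deposited reads per gene and well as estimated counts, some split into fractions, and whole counts of spike-in RNA for experiment 1. Per the submitters' processing notes cutadapt 1.11, STAR 2.4.2a, BWA 0.7.17-r1188, featureCounts 1.5.1 and the build mm10 were used; the roles of these tools, the annotation release, the strand setting and the treatment of shared reads were not stated there. Gene IDs were matched to GENCODE M21 (45229 of 45792 rows).

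Here wells with at least 500 genes and at most 30% mitochondrial reads were clustered with scanpy 1.11.5 (2000 variable genes, 15 components, Leiden resolution 0.8), leaving out the 84 genes. Doublets were handled only by keeping wells labelled with 1 cell; no caller was run. Values were summed per class and pool with at least 5 wells, rounded, and fitted in edgeR 4.0.16 (TMM, filterByExpr, quasi-likelihood, Benjamini-Hochberg) with the experiment as a block, since both pools of an experiment share an array by the titles. The control and diabetes differences between experiments had a Pearson r of 0.18 over genes. DESeq2 1.42.0 was an alternative. The edgeR fits were also run on simulated sums with known changes, the same dispersion for every gene and no pool effect. That setting is simpler than these data and does not measure how the fits perform on them. With 2 pools per condition, 1 residual degree of freedom remained within diabetes comparisons before sharing across genes. CPM is scaled to all reads of a sum, without TMM.

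The members and gene lists were chosen with earlier results of these data known. Clustering and class-naming limits were set after several versions were seen, and the members' summed levels per cluster had been seen before the last naming change. Named genes are, per comparison, the called members or the 5 with the smallest p, with the related pairs, the Sdh genes, the X-linked members, Atpif1 and the highest and lowest gene of each complex; other genes were named after their values were seen. The result of 1 gene that this rule names is not reported here. Lengths are those of the longest principal transcript (APPRIS tag in GENCODE).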

Additional observations from a re-analysis of the deposited data

How the results depend on the processing

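The count of members called in mesangial-like wells was 1 and became 2 with DESeq2 and 0 with mitochondrial reads of at most 15%, with wells thinned, and with finer clustering. With DESeq2 the count was 1 for immune-like and 1 for podocyte-like wells. Without the replicate block the counts of called members were 0 in all diabetes comparisons and 1 in mesangial-like wells, so the pairing of pools changed no call, and Ndufa4l2 had a log2 change of 6.45. Leaving out 1 pool at a time gave counts of 0 to 1 for diabetes in mesangial-like wells and 0 to 1 for the interaction, both from Ndufs1 without diabetes pool 2 (log2 change -12.28 and -13.12), when the 5 wells of diabetes pool 1, with 0 reads of it, stood alone. The other comparisons kept 0, or 1 in mesangial-like wells, under each pool left out. In these diabetes fits with 3 sums the block was dropped and the lone pool is assumed to vary like the others.

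Medians of the members turned sign for diabetes in endothelial-like wells (-0.35 to 0.27 over pools left out, with 0.27 without control pool 2 and 0.10 without diabetes pool 1) and in mesangial-like wells (-0.46 to 0.24, with 0.24 without control pool 1). The interaction median was 0.021 with RLE scaling, 0.026 with finer clustering and 0.41 without control pool 1 (range -0.77 to 0.41). With thinned wells the class medians were 0.0070 for mesangial-like and -0.023 for podocyte-like wells. Among named members, pools left out gave log2 changes of -0.012 to 1.59 for Atp5e and -1.17 to 0.019 for Ndufb9 in endothelial-like wells, the turned signs being those without control pool 1 and control pool 2. They gave -2.39 to 0.031 for Atp5h in mesangial-like wells (0.031 without diabetes pool 1) and -2.84 to 0.083 for the Ndufa3 interaction (0.083 without control pool 1). Uqcrq in mesangial-like wells against the other classes ranged from -0.21 without control pool 1 to 1.13, and was -0.034 with thinning. Pools left out also moved other named changes that did not pass, by over 1.5 times without a change of sign. The mean over wells moved 5 of the levels by more than 1 SD, among them Cox8a in podocyte-like wells to 342 CPM. The cause was not tested. The diabetes fit in mesangial-like wells could not be run with at most 15% mitochondrial reads, thinned wells or finer clustering, for lack of wells.

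With 2 pools per condition, the members' median standard error for diabetes against control was 0.32 on the log2 scale over all kept wells. It was 0.39 in endothelial-like wells, 0.73 in mesangial-like wells and 1.06 for the interaction. Changes of those sizes were not detectable, and larger ones, such as that of Ndufs7 over all kept wells, did not pass either.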
